A study of Mus musculus with 2 samples.

Results

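A set of 35 genes that mark endothelial cells, the inner lining of blood vessels, was followed in long-read RNA libraries of the mouse heart. The genes were taken by name from the annotated genes of the deposited transcript tables, with transcript models of every class kept, and all 35 were found among the 14514 annotated nuclear genes with at least 1 read. The hearts came from male B6CASTF1/J mice aged 2 months, which are first-generation hybrids between a C57BL/6J mother and a CAST father. The series is 1 group of 2 libraries, replicate 1 and replicate 2, each made from 2 µg of RNA, with no treatment, mutation or second tissue. The labels give the libraries separate biosamples, but another text field gives both the number of the same animal, so every difference and p-value here measures only the spread between these libraries, which may be technical. The labels name heart tissue as the source, which holds many cell types, so fewer cells of a type and less RNA per cell cannot be told apart.

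Endothelial cells seal the vessel wall with the homophilic adhesion proteins VE-cadherin, PECAM-1 and claudin-5, and keep the vessel quiet or let it sprout through receptor tyrosine kinases such as Tie2 and through receptors for sphingosine-1-phosphate, apelin, adrenomedullin and ligands of the BMP family. Their identity is held by transcription factors of the ETS and SOX families. The heart is rich in capillaries, which run beside each muscle cell and bring it fatty acids and oxygen.

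Several of these genes were read in alternative forms that differ by a few bases or by a short exon, and those sequences are shown first because the results on splicing turn on them. All coordinates are mm10. The intron of Egfl7 holds Mir126a, whose product miR-126 is the best known microRNA of endothelium; its mature sequence is given with the seed, bases 2 to 8, in capitals, and lies at chr2:26591402-26591423 on the plus strand (RefSeq, GRCm38.p6). The exon that follows that intron was read with 99 added bases, in capitals, at chr2:26591545-26591728 on the plus strand, where the first 20 bases in lower case are intron in both forms and the bases after the capitals are the annotated exon (letters from GENCODE M21).
mmu-miR-126a-3p: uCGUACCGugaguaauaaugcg
Egfl7 lengthened exon: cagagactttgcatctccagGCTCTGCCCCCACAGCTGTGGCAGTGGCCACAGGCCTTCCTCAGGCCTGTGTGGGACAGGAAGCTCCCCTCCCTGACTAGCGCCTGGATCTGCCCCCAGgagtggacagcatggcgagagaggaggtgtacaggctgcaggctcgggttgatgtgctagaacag

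Pecam1 encodes a long cytoplasmic tail in a series of short exons. Exons 12, 14 and 15 of the transcript Pecam1-204 were held by some reads and skipped by others; each is given in capitals with 10 bases of its neighbours in lower case, on the minus strand, at chr11:106681032-106681085, chr11:106671742-106671798 and chr11:106662002-106662024. These sequences and those of Eng, Tek and Robo4 come from the GENCODE M21 transcripts. The exons hold 54, 57 and 23 bases, so exon 15 alone of the 3 is not a multiple of 3.
Pecam1 exon 12: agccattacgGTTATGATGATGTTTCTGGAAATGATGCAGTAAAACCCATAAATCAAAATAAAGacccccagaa
Pecam1 exon 14: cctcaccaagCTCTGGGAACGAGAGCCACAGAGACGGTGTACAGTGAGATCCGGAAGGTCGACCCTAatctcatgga
Pecam1 exon 15: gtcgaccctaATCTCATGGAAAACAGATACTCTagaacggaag

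In Eng, Tek and Robo4, neighbouring splice sites add or leave out 3, 3 and 21 coding bases. Capitals mark the bases that only the longer exon holds, and 20 bases on either side are in lower case. The added bases lie on the plus strand at chr2:32657516-32657518 in Eng, at the start of exon 2 of Eng-201, at chr4:94851875-94851877 in Tek, directly after exon 14 of Tek-201, and at chr9:37410679-37410699 in Robo4, directly before exon 14 of Robo4-201.
Eng with the 3 bases: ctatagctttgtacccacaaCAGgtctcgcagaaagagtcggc
Eng without the 3 bases: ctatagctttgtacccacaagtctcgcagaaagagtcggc
Tek with the 3 bases: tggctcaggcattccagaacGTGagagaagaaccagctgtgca
Tek without the 3 bases: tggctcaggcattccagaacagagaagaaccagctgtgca
Robo4 with the 21 bases: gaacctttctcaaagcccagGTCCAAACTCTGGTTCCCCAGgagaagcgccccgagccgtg
Robo4 without the 21 bases: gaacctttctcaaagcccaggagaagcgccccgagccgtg

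The tables assign 454069 reads to 56790 models in replicate 1 and 661958 reads to 69026 models in replicate 2, of which annotated nuclear genes took 430251 and 629896. Levels are given in CPM, counts scaled to a total of 1000000 of those nuclear gene reads, so that 1 read was worth 2.32 CPM in replicate 1 and 1.59 CPM in replicate 2, and a count of 0 allowed up to 3 reads, or 6.97 CPM in replicate 1 and 4.76 CPM in replicate 2. In long-read data a read is taken to stand for a transcript molecule whatever its length, so levels were not divided by length. Copies of a molecule are not marked in these reads, and a loss of long molecules was not tested. Heart muscle markers were all read (9 of 9) and summed to 59231 ± 6747 CPM (SD, n = 2), led by Myh6, Atp2a2 and Pln. The 6 erythroid markers that were read summed to 13859 CPM in replicate 1 and 3712 CPM in replicate 2, led by Hba-a1, Hbb-bs and Hba-a2, and 5 of them passed the test described below, all higher in replicate 1. The part of blood in the differences between the libraries was not tested.

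The endothelial genes took 860 reads in replicate 1, 0.200% of nuclear gene reads (exact 95% interval 0.187 to 0.214), and 1244 reads in replicate 2, 0.197% (0.187 to 0.209). Their summed level was 1999 CPM in replicate 1 and 1975 CPM in replicate 2, a mean of 1987 ± 16.9 CPM (SD, n = 2). All 35 genes were read in both libraries, and 33 had at least 10 summed reads. The median of their mean levels was 40.5 CPM, against 11.8 CPM over all 14514 genes, and 31 of the 35 lay above that median. Many of the 14514 genes had fewer than 10 reads in all. For the 8086 genes that reached 10, the median was 35.3 CPM, much nearer to that of the set. Eng was first of the 35 and ranked 529 among all genes by mean level, and Calcrl was last at rank 11528. The 5 highest genes held 37.9% of the summed level.

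**Figure D1:**
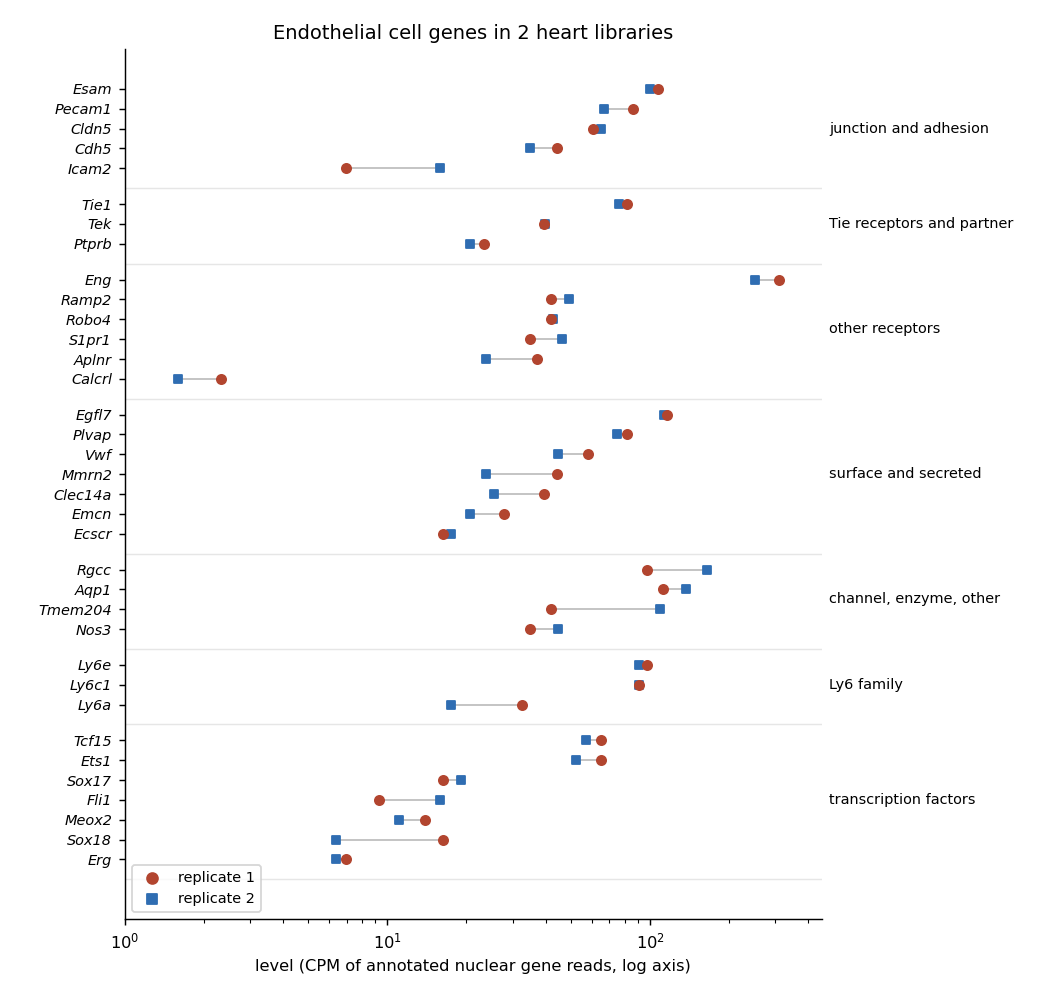
Level of each of the 35 endothelial genes in replicate 1 (circles) and replicate 2 (squares), in CPM of annotated nuclear gene reads on a log axis, grouped by role. Eng stands highest at 309 CPM in replicate 1 and 251 CPM in replicate 2, Calcrl lowest at 2.32 and 1.59 CPM, and the largest gap among the genes above 20 CPM is that of Tmem204, at 41.8 CPM in replicate 1 and 110 CPM in replicate 2.

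Adhesion proteins of the junction summed to 304 CPM in replicate 1 and 283 CPM in replicate 2 over 5 genes. Esam, an immunoglobulin-domain adhesion protein of endothelial tight junctions, was the most read of them, at 107 CPM in replicate 1 and 100.02 CPM in replicate 2. Pecam1, the platelet and endothelial adhesion molecule, had 86.0 CPM in replicate 1 and 66.7 CPM in replicate 2, and Cldn5, the main claudin of endothelial tight junctions, had 60.4 CPM in replicate 1 and 65.1 CPM in replicate 2. Cdh5, which encodes VE-cadherin, the cadherin of endothelial adherens junctions, was lower, at 44.2 CPM in replicate 1 and 34.9 CPM in replicate 2. Icam2, a ligand for leukocyte integrins, had 3 reads in replicate 1 and 10 in replicate 2, which is 6.97 and 15.9 CPM. Of 9 listed partners at the junction, the most read were Ctnna1 (alpha-catenin) at 646 ± 36.0 CPM, Jup (plakoglobin) at 112 ± 16.4 CPM and Ctnnb1 (beta-catenin) at 74.1 ± 2.94 CPM (SD, n = 2 each), which heart muscle cells also use at their own junctions.

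The angiopoietin receptor system was represented by Tie1, Tek and Ptprb, which summed to 144 CPM in replicate 1 and 137 CPM in replicate 2. Tek encodes Tie2, the receptor that binds angiopoietins, and stood at 39.5 CPM in replicate 1 and 39.7 CPM in replicate 2. Tie1, its co-receptor, was about 2-fold higher, with 81.3 CPM in replicate 1 and 76.2 CPM in replicate 2, and the values of Tie1 and Tek did not overlap. Ptprb, the phosphatase VE-PTP that dephosphorylates Tie2, had 23.2 CPM in replicate 1 and 20.6 CPM in replicate 2. Of the ligands, Angpt1, the agonist, was read at 30.9 ± 5.57 CPM and Angpt2, the context-dependent antagonist, at 2.75 ± 0.602 CPM (SD, n = 2 each), while Angpt4 had no read in either library.

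The group of 6 other receptors summed to 467 CPM in replicate 1 and 414 CPM in replicate 2, and most of it came from Eng. Eng (ENSMUSG00000026814.16, chr2:32646595-32682669, plus strand) encodes endoglin, a co-receptor for BMP9 and BMP10 that is mutated in human hereditary hemorrhagic telangiectasia. It took 133 reads in replicate 1 and 158 in replicate 2, or 309 and 251 CPM, a mean of 280.0 ± 41.2 CPM (SD, n = 2). Of the 10 genes listed with it, the signalling partner Acvrl1 (ALK1) was read at 21.1 ± 9.62 CPM, Smad1 at 29.0 ± 5.05 CPM and Tgfbr2 at 25.1 ± 2.65 CPM, all far below Eng. Bmp10, a ligand made in the heart, had 7 reads in replicate 1 and 1 read in replicate 2.

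Ramp2 and Calcrl together form the adrenomedullin receptor, in which Calcrl is the G protein-coupled chain and Ramp2 the accessory chain. Ramp2 was read 18 times in replicate 1 and 31 times in replicate 2, or 41.8 and 49.2 CPM, but Calcrl had only 1 read in each library. The ratio of the chains therefore rests on 2 reads of Calcrl, both of them in models that do not follow the annotation: a 17-exon NIC model in replicate 1 and a 1-exon Genomic model in replicate 2. The ligand Adm was read at 27.3 ± 13.9 CPM, and the accessory chain Ramp1 at 9.04 ± 2.93 CPM (SD, n = 2 each). The accessory chain Ramp3 had 1 read in replicate 1 and 4 in replicate 2. Ramp2 shares its strand with the overlapping gene Vps25 (54 reads in replicate 1 and 87 in replicate 2), so reads between the pair are as the authors assigned them.

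S1pr1, the receptor through which sphingosine-1-phosphate steadies the endothelial barrier, was at 34.9 CPM in replicate 1 and 46.0 CPM in replicate 2. Of the other receptors for this lipid, S1pr3 was read at 27.3 ± 13.9 CPM and its libraries overlapped those of S1pr1, with Sphk2, a kinase that makes the lipid, at 24.7 ± 1.24 CPM and its exporter Spns2 at 14.1 ± 6.41 CPM (SD, n = 2 each). Apom, its carrier in plasma, had no read. Aplnr, the apelin receptor, had 37.2 CPM in replicate 1 and 23.8 CPM in replicate 2, beside 22.7 ± 7.37 CPM for its ligand Apln and no read for the other ligand Apela. Robo4, an endothelial member of the roundabout family, was at 41.8 CPM in replicate 1 and 42.9 CPM in replicate 2, above its partner Unc5b at 7.46 ± 0.682 CPM. Slit3 was read at 2.75 ± 0.602 CPM, and Slit2 and Robo1 had no read.

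The 7 transcription factors summed to 193 CPM in replicate 1 and 168 CPM in replicate 2. Tcf15, a basic helix-loop-helix factor known from heart capillary endothelium, was first, at 65.1 CPM in replicate 1 and 57.2 CPM in replicate 2. Ets1, an ETS factor that lymphocytes also express, followed at 65.1 CPM in replicate 1 and 52.4 CPM in replicate 2. The more endothelial ETS factors were much less read: Fli1 had 4 reads in replicate 1 and 10 in replicate 2, and Erg had 3 and 4 reads. Of the lymphocyte markers, 3 of 9 were read, with 4 reads in replicate 1 (2 of Cd79a and 1 each of Cd79b and Nkg7) and none in replicate 2, and the T-cell genes Cd3e, Cd3d and Cd3g were at 0 in both. The SOX factors Sox17 and Sox18 had 16.3 CPM each in replicate 1, and 19.1 and 6.35 CPM in replicate 2. Meox2, a homeobox factor of heart endothelium with a role in fatty acid uptake, had 13.9 CPM in replicate 1 and 11.1 CPM in replicate 2. Related factors from a list of 13 were led by Klf2 at 63.7 CPM, Gata2 at 54.0 CPM and Klf4 at 32.9 CPM, the flow-responsive KLF factors and a GATA factor of endothelium.

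Surface and secreted proteins summed to 383 CPM in replicate 1 and 319 CPM in replicate 2 over 7 genes. Egfl7, a secreted protein of the vessel matrix, had 116 CPM in replicate 1 and 113 CPM in replicate 2, and Plvap, the protein of the diaphragms of caveolae and fenestrae, had 81.3 and 74.6 CPM. Vwf, the clotting factor that carries factor VIII and is stored in endothelial granules, had 58.1 CPM in replicate 1 and 44.5 CPM in replicate 2. Platelets also hold Vwf, and 5 of 7 platelet and megakaryocyte markers were read. They summed to 53.5 CPM in replicate 1 and 30.2 CPM in replicate 2, led by Pf4 at 31.7 ± 11.1 CPM (SD, n = 2). Next came Itga2b, with 5 reads in replicate 1 and 1 in replicate 2, and Gp1bb, with 0 and 2 reads, while Gp9 and Treml1 were at 0. The part of platelets in the level of Vwf was not tested. Mmrn2, a matrix protein that binds the lectin Clec14a, was at 44.2 CPM in replicate 1 and 23.8 CPM in replicate 2, and Clec14a itself at 39.5 and 25.4 CPM. Of the relatives listed with them, Thbd (thrombomodulin) was read at 50.2 ± 1.36 CPM, Cd93 at 20.4 ± 4.09 CPM and Cd248 at 14.5 ± 4.13 CPM (SD, n = 2 each). Emcn, a sialomucin of capillaries and veins, had 27.9 CPM in replicate 1 and 20.6 CPM in replicate 2, and Ecscr, a small surface protein of migrating endothelium, had 16.3 and 17.5 CPM.

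A water channel, an enzyme and 2 other genes made up the next group. Aqp1, the water channel, had 112 CPM in replicate 1 and 137 CPM in replicate 2. Nos3, the endothelial nitric oxide synthase, had 34.9 CPM in replicate 1 and 44.5 CPM in replicate 2, against 16.4 ± 3.04 CPM for the inducible enzyme Nos2 and 1 read in all for the neuronal enzyme Nos1. Its inhibitor Cav1 and its chaperone Hsp90aa1 were read at 170 ± 22.9 CPM and 94.3 ± 21.1 CPM (SD, n = 2 each). Rgcc, a cell cycle regulator also called response gene to complement, had 97.6 CPM in replicate 1 and 165 CPM in replicate 2. Tmem204, a claudin-like membrane protein, had 41.8 CPM in replicate 1 and 110 CPM in replicate 2.

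The Ly6 surface proteins were the last group, at 221 CPM in replicate 1 and 198 CPM in replicate 2 over 3 genes. Ly6e had 97.6 CPM in replicate 1 and 90.5 CPM in replicate 2, Ly6c1 had 90.6 and 90.5 CPM, and Ly6a, which encodes Sca-1, had 32.5 and 17.5 CPM. These genes lie near related genes on chromosome 15, and how reads were split between such relatives was not tested. Of 10 relatives listed, 7 had no read, and Gpihbp1, the capillary docking protein for lipoprotein lipase, was the highest at 88.3 CPM. It was followed by Ly6k, with 1 read in replicate 1 and 2 in replicate 2, and Ly6g6c, with 1 and 0 reads. The VEGF system was read beside all these genes, with Vegfb at 393 CPM, Vegfa at 284 CPM and the co-receptor Nrp1 at 155 CPM. Some of the 35 genes lie opposite another gene: Egfl7 opposite Agpat2 (58 reads in each library), Plvap opposite Gtpbp3 (6 reads in replicate 1 and 8 in replicate 2), Eng opposite Fpgs (3 and 6 reads) and Nos3 opposite Atg9b (2 and 0 reads). How strand was assigned is not stated, so reads within such pairs cannot be told apart with certainty. No gene of the 12 lists of ligands, partners and relatives passed the adjusted threshold between the libraries. Each list had only 0 to 9 genes with enough reads for the test described below. Of all genes tested, 56 of 8086 (0.693%) passed, so the lack of a pass among so few says little. In the VEGF list, 4 of the 5 genes tested were higher in replicate 1 and 1 in replicate 2. Kdr had 112 CPM in replicate 1 and 52.4 CPM in replicate 2 (adjusted exact p = 0.106), and Flt1 had 62.8 and 23.8 CPM (adjusted exact p = 0.203).

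An exact binomial test (two-sided) of each gene's reads compared replicate 1 with replicate 2, with p-values adjusted over the 8086 nuclear genes that had 10 summed reads or more. Calls needed an adjusted p under 0.05 together with a 2-fold difference or larger. The test covers counting error between 2 libraries and says nothing of mice in general. Of the 33 endothelial genes tested, 1 was called, Tmem204, beside 26 of all 8086 genes (0.322%). Tmem204 (ENSMUSG00000024168.8, chr17:25057702-25083591, minus strand) had 18 reads in replicate 1 and 69 in replicate 2, a log2 ratio of −1.36, with replicate 2 at 2.62-fold the level of replicate 1 (exact 95% interval 1.54 to 4.68, adjusted exact p = 0.0203). Nearly all of its reads belonged to 1 transcript, Tmem204-201, with 15 reads in replicate 1 and 67 in replicate 2. Tmem204 lies opposite Ift140, which had 5 reads in replicate 1 and 3 in replicate 2. With the ERCC spike-in reads as the denominator, which moved the median log2 ratio of all genes to −0.26, Rgcc was called too (log2 ratio −1.02, adjusted exact p = 0.00276), and the log2 ratio of Tmem204 was −1.63.

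The other genes differed less. Rgcc, with 42 reads in replicate 1 and 104 in replicate 2, had a log2 ratio of −0.75 (exact p = 0.00401, adjusted exact p = 0.255). Only Rgcc and Tmem204 had an unadjusted exact p under 0.05, which is 6.06% of the endothelial genes tested against 7.11% of all genes tested. In 24 of the 33 genes (72.7%, against 76.5% of all genes tested) the libraries lay within 1.5-fold of each other. Besides Tmem204 the genes beyond 2-fold were Icam2 and Sox18, which have 13 and 11 summed reads and log2 ratios of −1.04 and 1.29 (exact p = 0.264 for Icam2, exact p = 0.134 for Sox18). The median log2 ratio was 0.10 over the 33 genes and 0.01 over all genes tested, and 20 of the 33 had the higher CPM in replicate 1 (60.6%, against 49.4% of all genes tested). Summed over the 35 genes, replicate 1 stood at 1.01-fold the level of replicate 2 (exact 95% interval 0.927 to 1.10), or 0.841-fold (0.770 to 0.918) per ERCC read, where the shift of all genes given above applies. The order of the levels was alike in the libraries, with Spearman's rho of 0.933 over the 35 genes, which are not independent replicates.

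**Figure D2:**
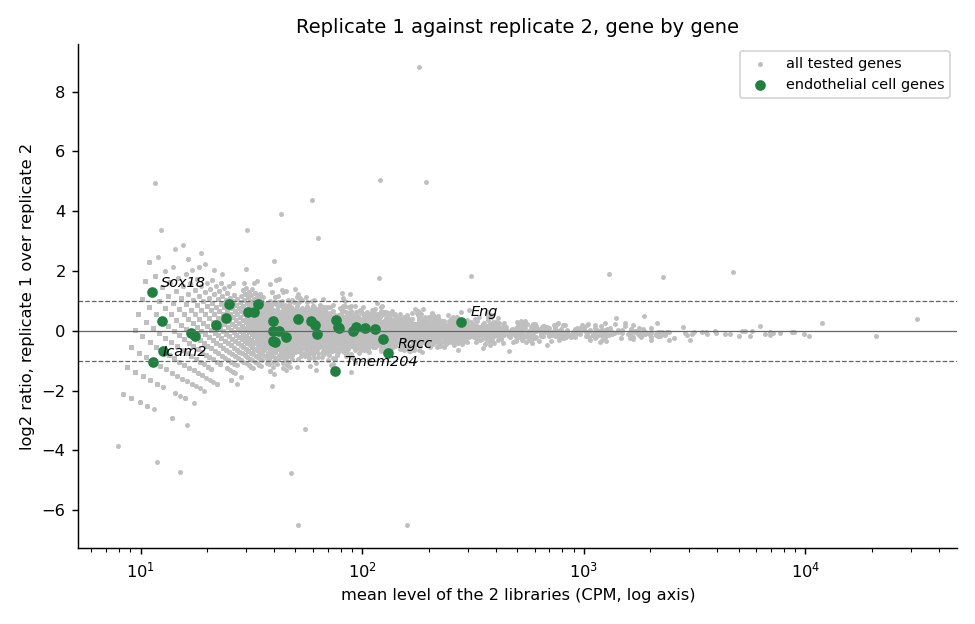
Log2 ratio of replicate 1 over replicate 2 against the mean level in CPM (log axis) for the 8086 genes tested (grey) and the 33 endothelial genes tested (green). Tmem204 at −1.36 is the only endothelial gene called, Sox18 at 1.29 and Icam2 at −1.04 lie among the low-count genes, and the rest cluster around 0.

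Each read belonged to a transcript model, and the deposited class of the model says how it matches the annotation. Known models follow the whole intron chain of a GENCODE M21 transcript, and ISM (incomplete splice match) models a part of one. Genomic models lie within a gene but have none of the other class labels named here. In principle NIC stands for a new pairing of known splice sites, and NNC for use of a site absent from GENCODE M21. The deposited labels do not hold strictly to this. An Egfl7 model of 1486 bases with an unannotated acceptor carries both labels, and a Ly6e model labelled NIC also has an unannotated acceptor. Egfl7 had 4 NIC and 8 NNC reads in replicate 1, but 14 and 3 in replicate 2. Of the endothelial reads, 75.1% were Known in replicate 1 (exact 95% interval 72.1 to 78.0) and 74.5% in replicate 2 (72.0 to 76.9), close to the 75.7% in replicate 1 and 75.6% in replicate 2 over all nuclear gene reads. ISM models took 14.7% of endothelial reads in replicate 1 and 15.0% in replicate 2, against 10.8% and 11.05% over all genes. Models labelled NIC took 2.91% in replicate 1 and 3.22% in replicate 2, against 5.42% and 4.96% over all genes. These shares follow the deposited labels, so they do not measure new pairings of known sites alone. The excess of ISM reads was in models labelled suffix, a label for models that match the 3′ part of a transcript (10.6% in replicate 1 and 10.5% in replicate 2, against 7.77% and 7.999% over all genes). It was also in models of 1 exon (3.605% and 4.26%, against 2.51% and 2.55%). A few genes held much of both. Of the 91 suffix reads in replicate 1, Vwf held 17, Robo4 held 13 and Ly6c1 held 12. Vwf, Robo4 and Ly6c1 held 22, 25 and 12 of the 130 suffix reads in replicate 2. The 12 reads of Ly6c1 in replicate 1 belong to a model that begins in exon 1, so the label does not always mean that 5′ exons are lacking. Aqp1 held 14 of the 31 reads in 1-exon ISM models in replicate 1 and 34 of 53 in replicate 2. The excess is therefore not shown to be a trait of the set as a whole. The class shares have no test, because reads of a gene are not replicates.

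The genes differed widely in the share of their reads that fell in Known models. Of the 27 with at least 20 summed reads, 7 had at least 90% Known reads, 17 had 50% to 90% and 3 had less than 50%; their median was 74.7%, against 80.6% over 6016 genes with at least 20 reads. All 67 reads of Cldn5, a gene of 1 exon, were Known, as were 30 of 31 reads of Aplnr and 32 of 33 reads of Clec14a, whose leading transcripts also have 1 exon. A transcript of 1 exon has no intron chain to match in part, so these high shares do not show that whole molecules were read. Of the 81 Known reads of Egfl7, 33 were of Egfl7-213, a 1-exon transcript of 536 bases. The genes below 50% were Ptprb with 39.1%, Vwf with 16.98% and Robo4 with 13.3%. Among genes whose leading transcript exceeds 4000 bases, the median share was 60.7% over 7 endothelial genes and 65.0% over 1260 genes of all kinds, and at up to 2000 bases it was 88.5% over 10 endothelial genes and 89.8% over 2097 genes. Across the 27 genes the share fell with the length of the leading transcript (Spearman's rho −0.48; −0.39 over 5867 genes of all kinds), as a description of these libraries, in which the points share their depth.

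**Figure D3:**
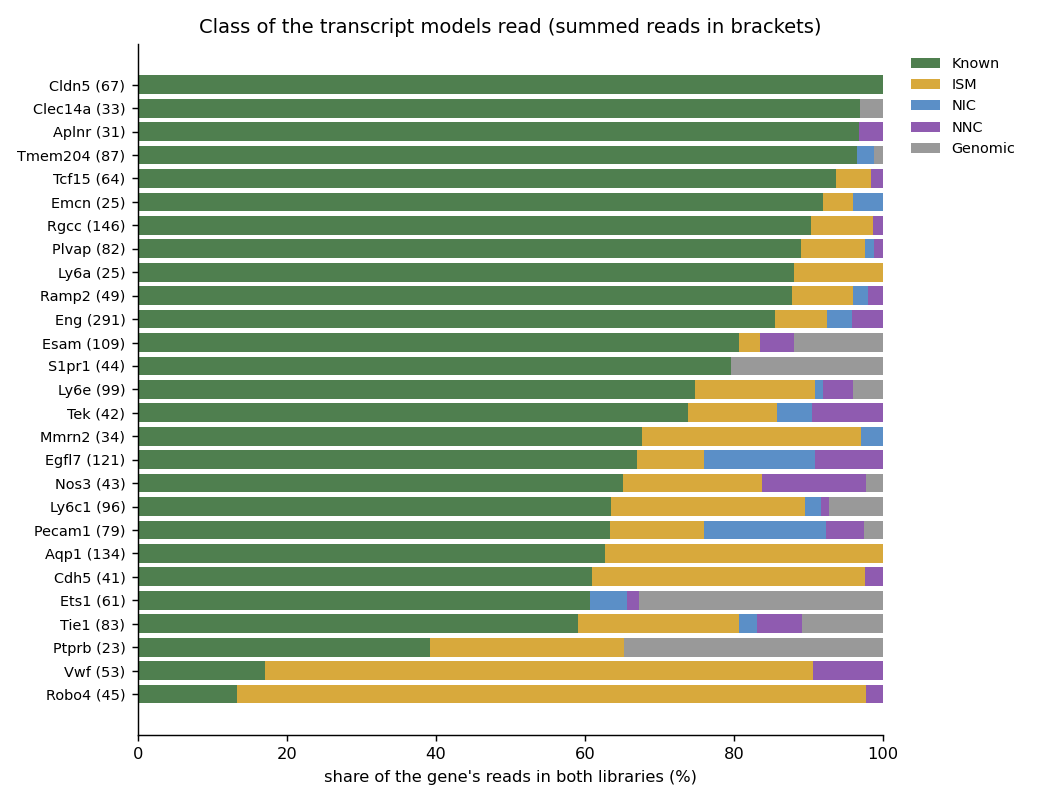
Share of each gene's reads, summed over the libraries, in models of the classes Known, ISM, NIC, NNC and Genomic, with the number of reads in brackets. Cldn5 is wholly Known, while ISM models take most reads of Robo4 (84.4%) and Vwf (73.6%).

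The leading transcript of Vwf (Vwf-203, chr6:125546774-125686679, plus strand) has 52 exons and 8834 bases. Of its reads, 8 of 25 in replicate 1 and 5 of 28 in replicate 2 belonged to models that begin in exon 1. Models that begin in exons 25 to 52 took 13 reads in replicate 1 and 22 in replicate 2, and those that begin in exons 2 to 24 took 3 reads and 1 read. Robo4 (chr9:37401897-37415115, plus strand) has 18 exons in 3226 bases, and models beginning in or before exon 1 took 5 of 18 reads in replicate 1 and 1 of 27 reads in replicate 2. In replicate 2, 13 reads of Robo4 belonged to models that begin inside intron 12, at 176 or 92 bases before exon 13, where replicate 1 had none; models that begin in exons 12 to 18 took 9 reads in replicate 1 and 7 in replicate 2. Eng, with 15 exons, is the contrast, since models beginning in exon 1 took 129 of 133 reads in replicate 1 and 142 of 158 reads in replicate 2. The outer ends of a model are a property of the model, so single reads may begin elsewhere, and no read ends were used here. Among the endothelial genes with at least 20 reads and more than 1 exon, the median share of reads in models that begin at exon 1 was 82.4% for the 14 genes with 2 to 10 exons, 84.8% for 5 genes with 11 to 20 exons and 66.3% for 5 genes with 21 to 60 exons.

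**Figure D4:**
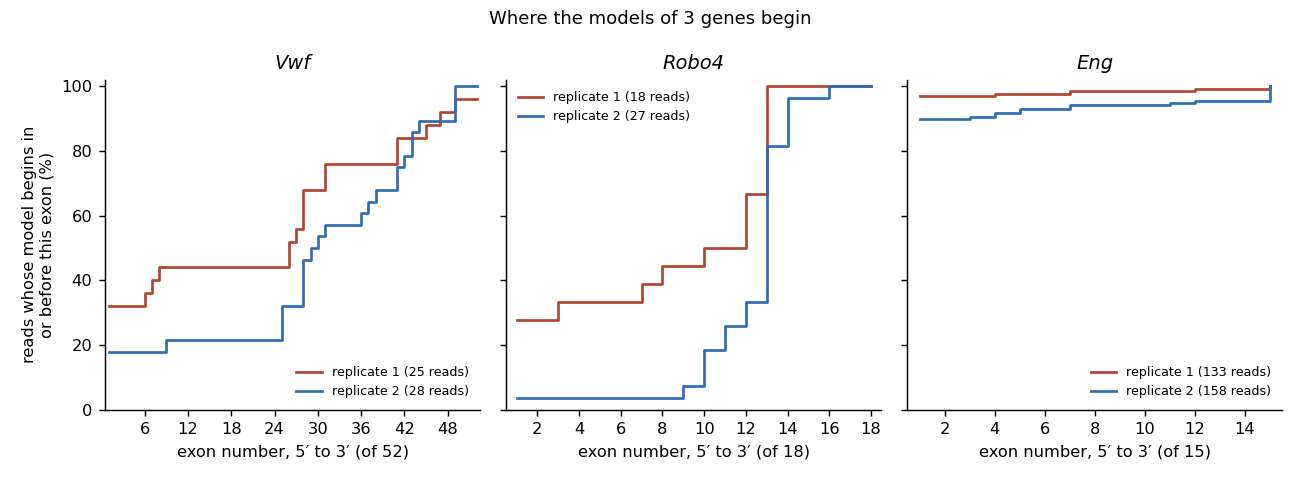
Cumulative share of reads whose model begins in or before each exon of the leading transcript of Vwf, Robo4 and Eng, for replicate 1 (red) and replicate 2 (blue). The curves of Vwf start at 32.0% in replicate 1 and 17.9% in replicate 2 and climb most after exon 24, those of Robo4 climb most around exon 13, and those of Eng start at 97.0% and 89.9%; in Vwf, 1 read of replicate 1 begins between exons and is not drawn.

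Other genes also had partial models. Aqp1 had 14 reads in replicate 1 and 34 in replicate 2 in a 1-exon ISM model of 1938 bases, and Cdh5 had 4 and 7 reads in a 1-exon ISM model of 2031 bases. Ly6c1 had a 3-exon ISM model in each library. The one of 1058 bases, with 12 reads in replicate 1, begins in exon 1 and keeps intron 1 (260 bases). The one of 939 bases, with 11 reads in replicate 2, begins between annotated exons. Genomic models were frequent in Ptprb (34.8% of its reads), Ets1 (32.8%) and S1pr1 (20.5%). In Ets1 a single model of 3393 bases took 8 reads in replicate 1 and 11 in replicate 2. That model, and all Genomic models of Ptprb and S1pr1, begin in the last exon of the leading transcript, so they cross none of its introns. Whether their reads come from unspliced RNA was not tested. A Genomic model of Esam of 773 bases had 0 reads in replicate 1 and 11 in replicate 2. Of the 9 Genomic reads of Tie1, 8 in replicate 2 belong to a model listed with a length of 1 base, so what they cover cannot be read from the files. Erg had no Known read, and 6 of its 7 reads were Genomic, which leaves the level of Erg resting on reads in models that are not Known.

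Eng gave the best view of splice choice, because most of its reads crossed the first intron. The acceptor that adds the 3 bases CAG at the start of exon 2 was used in 99 of 125 reads in replicate 1 (79.2%, exact 95% interval 71.0 to 85.9) and in 107 of 139 reads in replicate 2 (77.0%, 69.1 to 83.7). The acceptors lie 3 bases apart, so the choice leaves the frame after them as it was. The annotation separates them as Eng-201 and Eng-205, which had 93 and 22 reads in replicate 1 and 101 and 31 reads in replicate 2. The last intron of Eng (139 bases) is kept in Eng-202, whose coding sequence is shorter, 1923 bases against 1959 bases in Eng-201; in humans, keeping the last intron gives S-endoglin, a form with a shorter cytoplasmic tail. That intron was kept in 1 of 129 reads in replicate 1 (0.775%, exact 95% interval 0.0196 to 4.24). In replicate 2 it was kept in 0 of 149 reads (exact 95% interval 0 to 2.45), where the floor of 3 reads is a share of 2.01%. Intron 11, of 318 bases and between coding exons, was kept in 7 of 129 reads in replicate 1 (5.43%) and 4 of 150 reads in replicate 2 (2.67%), and a 14-exon NIC model of 3173 bases that keeps it and splices every other intron as Eng-201 does took 4 reads in replicate 1 and 3 in replicate 2.

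Tek was spliced at its exon 14 donor with the added bases GTG in 8 of 17 reads in replicate 1 and 11 of 24 reads in replicate 2, 46.3% over both (exact 95% interval 30.7 to 62.6). Robo4 took the acceptor that adds 21 bases in 10 of 18 reads in replicate 1 and 10 of 22 reads in replicate 2. Ly6e used an acceptor that adds 3 bases in 18 of 30 reads in replicate 1 and 28 of 45 reads in replicate 2. In Tek and Robo4 the forms had similar numbers of reads. In Ly6e the longer form had more reads in both libraries, 61.3% over both (exact 95% interval 49.4 to 72.4). The intervals of these 3 genes take in 50% in both libraries but are wide, so they cannot show that the forms are equally used. In Ly6c1, by contrast, the acceptor that adds 15 bases was used in 4 of 22 reads in replicate 1 and 1 of 37 reads in replicate 2, 8.47% over both. All of these added stretches, of 3, 15 and 21 bases, are multiples of 3.

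The tail exons of Pecam1 (ENSMUSG00000020717.19, chr11:106654217-106750628, minus strand) were read in several combinations. Exon 12 was held by 32 of 37 reads in replicate 1 (86.5%, exact 95% interval 71.2 to 95.5) and 35 of 40 reads in replicate 2 (87.5%, 73.2 to 95.8). Exon 14, which codes for one of the tyrosine-based signalling motifs of the tail, was held by 24 of 36 reads in replicate 1 (66.7%, 49.0 to 81.4) and 25 of 40 reads in replicate 2 (62.5%, 45.8 to 77.3). Exon 15, whose 23 bases shift the frame of the exon after it, was held by 16 of 37 reads in replicate 1 (43.2%, 27.1 to 60.5) and 10 of 40 reads in replicate 2 (25%, 12.7 to 41.2), and these intervals overlap. Of the 36 reads in replicate 1 and 40 in replicate 2 that cover the whole tail, 14 and 9 held exons 12, 14 and 15, 8 and 12 held exons 12 and 14, and 8 and 13 held exon 12 alone. The remaining 4 patterns took 6 reads in replicate 1 and 6 in replicate 2.

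**Figure D5:**
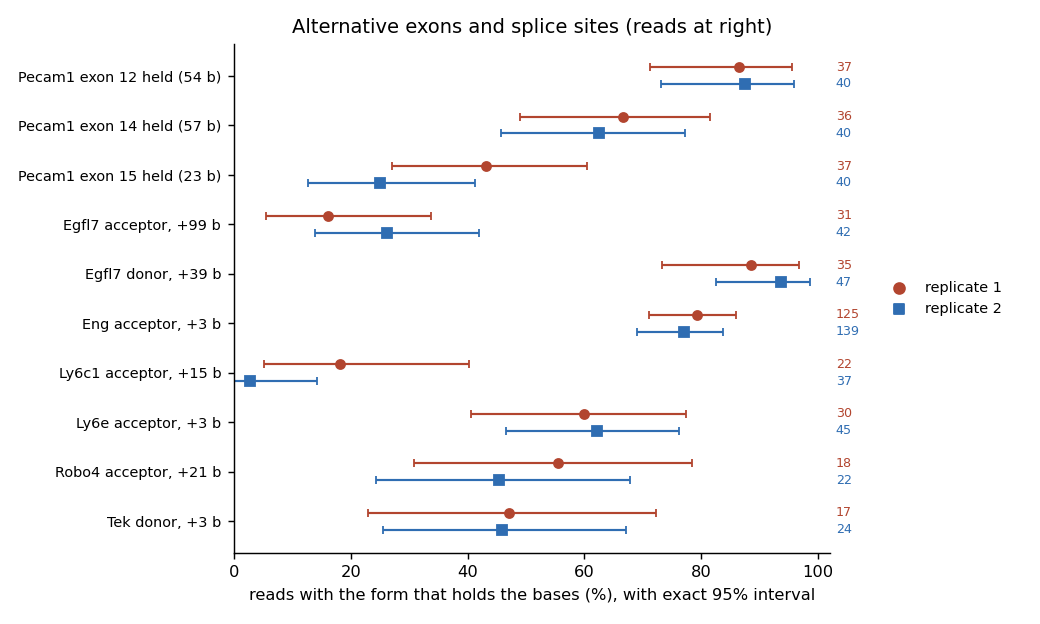
Share of reads with the form that holds the named exon or the added bases, for replicate 1 (circles) and replicate 2 (squares), with exact 95% intervals and the number of reads at the right. Exon 12 of Pecam1 lies near 87% and exon 15 at 43.2% in replicate 1 and 25% in replicate 2, and the intervals of the libraries overlap in every pair drawn.

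Egfl7 (ENSMUSG00000026921.18, chr2:26580014-26593120, plus strand) has several promoters, and most reads came from 1 of them. A first exon at chr2:26583864-26584048 began 33 of 50 reads in replicate 1 (66.0%) and 39 of 71 reads in replicate 2 (54.9%). The first exon at chr2:26581056-26581241 began 0 and 3 reads, and that at chr2:26586630-26586681 began 1 and 2 reads. The 1-exon transcript Egfl7-213, near the 3′ end of the gene, took 10 reads in replicate 1 and 23 in replicate 2. The 250 bases that end at the first base of the most used first exon are printed because this start carried most of the reads that begin at the 5′ end, with matches to the core of ETS binding sites, AGGAAG or its reverse complement CTTCCT, in capitals (RefSeq, GRCm38.p6, chr2:26583615-26583864, plus strand).
Egfl7 promoter: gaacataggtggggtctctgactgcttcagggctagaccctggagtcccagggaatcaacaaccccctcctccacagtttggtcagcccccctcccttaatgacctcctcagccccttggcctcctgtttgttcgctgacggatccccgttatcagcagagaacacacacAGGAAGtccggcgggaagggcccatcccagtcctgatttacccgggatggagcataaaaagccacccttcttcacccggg
The full window of the RefSeq table, which runs on into the first exon, holds 2 matches here, 3 at the upstream start and 0 at the downstream start. The motif, read on both strands, is in 11613 of 32851 promoters (35.4%), and in 11 of the 19 promoters the table holds for 14 of the endothelial genes (57.9%). A match is a description of the letters and not of binding.

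The intron of Egfl7 that holds the Mir126a hairpin was spliced out in 34 reads in replicate 1 and 44 in replicate 2, and the hairpin was held inside an exon in 2 and 0 reads. These reads show the host transcript and do not measure the microRNA. Among reads that join the same donor (the exon ending before chr2:26591064) to the 2 acceptors printed above, the upstream acceptor, which GENCODE M21 lacks, was used in 5 of 31 reads in replicate 1 (16.1%, exact 95% interval 5.45 to 33.7) and in 11 of 42 reads in replicate 2 (26.2%, 13.9 to 42.0). It lengthens exon 8 of Egfl7-202, within the coding part, by 99 bases, and both acceptors follow the dinucleotide AG. The added bases hold 1 stop codon in the frame of Egfl7-202, so the reading frame runs for 221 codons with them and 278 codons without them. A 10-exon model of 1486 bases with this acceptor took 5 reads in replicate 1 and 9 in replicate 2, and it is the only unannotated spliced model of the 35 genes, besides that of Eng, with at least 5 summed reads. The reference genome is C57BL/6J, so bases printed here may differ on the CAST chromosomes. A donor nearer the 3′ end of Egfl7, which adds 39 bases, was used in 31 of 35 reads in replicate 1 and 44 of 47 reads in replicate 2.

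Unannotated splice patterns were otherwise thin. The 35 genes had 95 NIC or NNC models in 26 genes with 135 reads in all, 58 in replicate 1 and 77 in replicate 2; 79 of the models had 1 read, and 12 were read in both libraries. Isoform use over known transcripts was compared in the 4 endothelial genes with enough reads, Egfl7, Eng, Ly6e and Pecam1, and 0 were called (1 of 550 genes tested, 0.182%). None of the 4 had an unadjusted p under 0.05 by Fisher's exact test or, for Pecam1, by a permutation test; the largest difference in share was 17.8 percentage points in Pecam1 (permutation p = 0.456, adjusted p = 1) and the smallest 1.19 points in Ly6e. At these depths such differences in share were not detectable as differences between the libraries.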

How the data were processed

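Long-read RNA libraries of 2 hearts, or 2 samples of 1 heart (the labels conflict), were used. The authors deposited raw counts of reads per transcript model with a TALON class for each model, aligned to mm10 and annotated with GENCODE M21, per the labels and the file headers. The aligner, read correction, strand assignment and program versions are not given in the sources used here. The deposited counts were not normalized or pooled.

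Counts of every model class were added up for each annotated nuclear gene and scaled to CPM. Replicates were compared by an exact two-sided binomial test with Benjamini-Hochberg adjustment over genes with at least 10 summed reads; log2 ratios add 0.5 reads to each count. With 1 library per side, edgeR's quasi-likelihood test has no residual degrees of freedom and was not run; edgeR 4.0.16 and DESeq2 1.42.0 (R 4.3.3) gave alternative scaling factors only. For isoform use, known transcripts of 10 or more summed reads entered, in genes that had 20 or more per library, by Fisher's exact test or, for over 2 transcripts, a permutation test of chi-square (100000 random tables), and calls were made at an adjusted p under 0.05 and 10 percentage points. Shares have exact Clopper-Pearson 95% intervals, which, like the floor of 3 reads, cover counting error only, since copies of a molecule are not marked in these reads. Exons and introns were read from the deposited annotation files, and sequences from GENCODE M21 and RefSeq GRCm38.p6 tables. All 35 genes were accounted for: genes with at least 10 summed reads by value, and Erg and Calcrl by reads. Of each list of partners or markers the 3 highest are named, with others chosen after their values were seen where the text singles them out, as are the splice sites described. The genes and lists were chosen with earlier results of these data known. Python 3.11.15, numpy 2.4.6, pandas 2.3.3, SciPy 1.17.1 and matplotlib 3.10.9 were used, and the tests were checked on simulated data. Alternatives tried were known transcripts only, no Genomic models, other denominators and scaling factors, other read minimums and each library alone.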

Additional observations from a re-analysis of the deposited data

Results flagged for a closer look

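Reads in loci that the annotation lacks, on the strand opposite to an endothelial gene, do not enter the levels of the report. Such loci lay opposite 17 of the 35 genes, with 51 reads in replicate 1 and 43 in replicate 2, and exceeded the 3 reads that a count of 0 allows at 2 places. Opposite Ets1, near its 3′ end, a locus that begins at chr9:32755004 had 14 reads in replicate 1 and 22 in replicate 2. Its model ends at chr9:32756655 in replicate 1, but in replicate 2 it is listed with the same start and end, so what those reads cover cannot be read from the files. Opposite Esam, a locus at chr9:37532290-37536250 had 7 reads in replicate 1 and 3 in replicate 2. The sources used here do not give how reads were assigned to a strand, so reads of Ets1 and Esam and of the loci opposite to them cannot be told apart with certainty.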

How the results depend on the processing

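Tmem204 was called under every alternative tried for the test between the libraries, with log2 ratios of −1.35 to −1.63 and adjusted exact p of 0.00017 to 0.0364. The number of endothelial genes called was 1 throughout, except with ERCC reads as the denominator, where it was 2 because Rgcc was added (log2 ratio −1.02, adjusted exact p = 0.00276, against 0.138 to 0.455 elsewhere). That denominator shifts every gene's log2 ratio alike by construction, with the median of all genes at −0.26 against 0.01. All genes called numbered 26 of 8086 (0.322%), but 70 (0.866%) per ERCC read. They numbered 56 (0.693%) with no fold threshold and 15 of 6351 (0.236%) with known transcripts only. The share called was 0.495% without Genomic models, 0.575% at a minimum of 50 summed reads, and 0.158% to 0.334% under the other alternatives. The summed level of 1987 CPM was 1487 CPM with known transcripts only and 1909 CPM without Genomic models, which remove reads by construction, and 1911 CPM with all mouse reads as the denominator; alone, the libraries gave 1975 to 1999 CPM. The Known share of 74.8% was 77.9% without Genomic models and 72.7% as a mean of the genes' own shares, and 74.5% to 75.1% in single libraries. Genes read in both libraries numbered 33 with known transcripts only or without Genomic models, and 34 at 3 reads in each. Isoform calls stayed at 0 in both alternatives tried. No paired analysis was possible because the series has 1 group. Depth limits the low genes most, since a log2 ratio of a gene such as Icam2 or Sox18 rests on a few reads.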

Other observations

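Markers of endothelial subtypes, none of them among the 35 genes, were read at very different levels. Capillary markers summed to 1674 ± 29.5 CPM over 9 genes, led by Cd36 at 741 CPM and Fabp4 at 432 CPM, which take up and carry fatty acids, and by Kitl at 98.5 CPM. Venous markers summed to 127 ± 37.7 CPM over 6 genes, led by Ephb4 at 93.5 CPM, Nr2f2 at 11.4 CPM and Vcam1 at 9.04 CPM. Arterial markers summed to 118 ± 12.6 CPM over 8 genes, led by Fbln5 at 45.6 CPM, Dll4 at 22.7 CPM and Hey1 at 12.9 CPM. Lymphatic markers summed to 70.5 ± 5.44 CPM (6 of 7 read), led by Ccl21a, whose near-identical copies under 2 gene IDs had 19.6 and 18.8 CPM, Prox1 at 12.9 CPM and Lyve1 at 11.7 CPM, and endocardial markers to 63.9 ± 5.003 CPM (5 of 6 read), led by Cytl1 at 17.7 CPM, Npr3 at 15.3 CPM and Nfatc1 at 12.9 CPM (SD, n = 2 each). Several of these markers, such as Cd36 and Fabp4, are also used by heart muscle or fat cells, so the sums are not shares of cells.

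Markers of endothelium in other organs were at or near 0, apart from Slc2a1. Of the brain endothelium markers, Slc2a1 alone was read, at 13.7 ± 3.65 CPM (SD, n = 2), while Mfsd2a, Slco1a4, Slco1c1 and Lef1 had no read. Of the liver sinusoid markers, Oit3 and Clec1b had 1 read each, in replicate 1, and Stab2 and Clec4g had none. Other cell types of the vessel wall and of the tissue were read throughout, with pericyte and smooth muscle markers at 664 ± 35.2 CPM, led by Rgs5 at 332 CPM, Abcc9 at 88.4 CPM and Acta2 at 83.0 CPM, fibroblast markers at 1290 ± 187 CPM, led by Dcn at 504 CPM, Col3a1 at 364 CPM and Fbln1 at 159.5 CPM, and macrophage markers at 354 ± 6.13 CPM (SD, n = 2 each), led by Lyz2 at 155 CPM, C1qc at 51.5 CPM and C1qb at 50.2 CPM.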
